A study of Mus musculus with 6 samples.

Results

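The NRF2 pathway was followed through 10 genes chosen by symbol: *Nfe2l2*, which encodes NRF2 itself, its inhibitor *Keap1*, and the target genes *Nqo1*, *Hmox1*, *Gclc*, *Gclm*, *Txnrd1*, *Srxn1*, *Slc7a11* and *Osgin1*. All 10 were among the 14548 genes with an FPKM value, a level scaled to transcript length and to the mapped fragments of the library, in each library. The libraries were made from C2C12, a mouse myoblast line that can be driven to form muscle fibres, grown in DMEM with fetal bovine serum. There were 3 WT libraries and 3 MSTN-KO libraries. The MSTN-KO cells are the line C11, made by electroporating C2C12 cells with a CRISPR/Cas9 plasmid against exon 3 of *Mstn*, the gene of the muscle growth inhibitor myostatin. C11 also stands as the strain on the labels of WT, so the groups follow the genotype in the labels. As the MSTN-KO libraries share 1 cell line, what the loss of MSTN does and what else sets C11 apart from the WT cells cannot be told apart. Nothing states that the replicates were separate cultures, so the p-values measure the spread between these libraries, which may be technical.

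NRF2 is a transcription factor that switches on genes against oxidants and electrophiles. In resting cells KEAP1 hands NRF2 to the CUL3 ubiquitin ligase for breakdown, and oxidants or electrophiles that modify KEAP1 let NRF2 build up, pair with a small MAF protein and bind antioxidant response elements. BACH1, a repressor that heme inactivates, pairs with the same MAF proteins and occupies many of the same elements, above all at the heme and iron genes. In skeletal muscle the pathway is known for limiting oxidative damage.

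The values were compared as log2(FPKM + 1) with limma over the 10837 genes that reached 1 FPKM in any library, and all 10 genes were among them. A gene was called rising or falling at a Benjamini-Hochberg adjusted p under 0.05. Of the 10 NRF2 genes, 2 rose in the MSTN-KO libraries, *Hmox1* and *Osgin1*, and 0 fell. Over all tested genes, 8.78% rose and 8.96% fell by the same test. *Nfe2l2* and 7 further genes did not pass. At an unadjusted limma p under 0.05, 3 of the 10 were higher and 0 lower. The shares of all tested genes at that threshold were not counted here, and cannot be under the 8.78% and 8.96% above. The same holds where the lists below are counted this way. Under the DEG criteria of the study, which ask for p under 0.05 without adjustment and a log2 change beyond 1 either way, 0 of the 10 were upregulated and 0 downregulated, against 1.21% and 2.3% of all tested genes. These criteria were applied here to the limma fit on log2(FPKM + 1), which gave 131 genes up and 249 down. The study used iDEP and reports more genes in both directions. The median log2 fold change of the 10 genes was 0.10, and that of all tested genes was 0.00. The former was 0.26 without MSTN-KO replicate 2 and 0.05 without MSTN-KO replicate 3. These values use the FPKM as deposited. Scaling each library to an FPKM sum of 1000000 lowers the median of all genes by 0.26, and the median of the 10 genes was then -0.19.

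The FPKM sums lay between 723705 and 764524 in the WT libraries against 856314 to 999579 across MSTN-KO, and the number of fragments per library is not given in the sources used here. *Mstn* was at 0 to 0.0399 FPKM in WT and at 0.0269 to 0.0586 FPKM in MSTN-KO, too low to check the labels. The myoblast markers *Myod1*, *Myf5*, *Des* and *Itga7* were present in all 6 libraries, while the endothelial markers *Pecam1*, *Cdh5*, *Kdr* and *Tek* summed to 0.167 FPKM or less and the epithelial markers *Krt8* and *Cdh1* to 0.492 FPKM or less. Markers of fibroblasts summed to 10.4 to 16.1 FPKM in WT and 10.9 to 18.7 in MSTN-KO, those of macrophages, mostly *Cd14*, to 6.10 to 8.11 and 5.37 to 8.86, and those of adipocytes, mostly *Pparg*, to 5.69 to 6.48 and 6.74 to 9.94. Of the 2 tested adipocyte markers *Fabp4* rose (0.241 to 1.24 FPKM as means, log2 fold change 0.83, limma adjusted p = 0.00924), having reached 1 FPKM in MSTN-KO libraries only, and of the 2 tested fibroblast markers *Dcn* fell (2.37 to 1.04 FPKM as means, -0.73, limma adjusted p = 0.0454). The myoblast markers summed to 949.5 to 1355 FPKM in WT and 594.4 to 735.6 in MSTN-KO, and 3 of these 4 genes fell. All 21 tested genes of a myocyte differentiation list fell in MSTN-KO, with a summed level of 214.9 to 304.5 FPKM against 757.5 to 1773 FPKM in WT, where replicate 3 was the lowest, and log2 fold changes of -4.02 for *Mylpf*, -3.76 for *Tnni1*, -3.63 for *Myl1* and -3.36 for *Myog*. Over all tested genes 8.96% fell. In this list *Ckm*, *Myh3*, *Myh1*, *Casq2* and *Cav3* reached 1 FPKM in WT libraries only, the group where they were high. With a filter on the mean 19 genes of the list fell. In bulk RNA, fewer differentiated cells and less of these RNAs per cell cannot be told apart. The part of this shift in the results for the NRF2 genes was not tested.

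Short stretches of the members' promoters are shown because NRF2 and BACH1 are known to act through short elements of this kind. RefSeq promoter windows on GRCm38.p6, from 250 bases before to 50 after a transcript start, were given for 8 of the 10 genes, without *Hmox1* and *Gclc*, in 10 windows. The core of the antioxidant response element, TGACNNNGC on either strand, was in 4 of these 10 windows and in 12.4% of all 32851 windows. Each match is printed below on the strand where it reads TGAC, 5′ to 3′, with the core in capitals.
*Nfe2l2*, chr2:75704885-75704913, minus strand: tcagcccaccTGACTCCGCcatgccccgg
*Gclm*, chr3:122245413-122245441, minus strand: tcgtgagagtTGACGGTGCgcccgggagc
*Txnrd1*, chr10:82859104-82859132, minus strand: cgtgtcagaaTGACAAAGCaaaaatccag
*Srxn1*, chr2:152105542-152105570, minus strand: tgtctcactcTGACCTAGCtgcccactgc
The core lies 240, 134 and 92 bases before the start for *Nfe2l2*, *Gclm* and *Txnrd1* and 28 bases after it for *Srxn1*. *Txnrd1* has 3 windows, and the one shown belongs to a start within the annotated gene, as does the window of *Osgin1* below. The related letters TGACTCA, which AP-1 and BACH proteins also bind, were in the windows of *Osgin1* and *Srxn1* and in 5.2% of all windows. They are shown in capitals for *Osgin1*, the member with a window that rose, and for both places in *Srxn1*.
*Osgin1*, chr8:119437040-119437066, plus strand: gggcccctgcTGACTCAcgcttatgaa
*Srxn1*, chr2:152105469-152105495, minus strand: gcccggccgcTGACTCAgggtgaattt
*Srxn1*, chr2:152105412-152105438, minus strand: cacagcgtggTGACTCAggccctccga
A TGACTCA followed by GC would count for both searches, and none of the matches in these 10 windows did. In *Osgin1*, and in *Srxn1* at chr2:152105469-152105495, GC stands before TGACTCA instead. Read on the other strand, these places end in GC and have G in place of the C of TGAC. The core search did not cover that form, so these places were not counted as cores. A match is a description of letters and not a site shown to be bound. The windows of *Keap1*, *Nqo1* and *Slc7a11* held neither set of letters.

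*Nfe2l2* (ENSMUSG00000015839, chromosome 2 of GRCm38, 75675513 to 75704641, minus strand) is the regulator of the pathway. It was at 31.8, 34.5 and 33.8 FPKM across WT replicates, in the order 1, 2, 3 used throughout, against 34.5, 33.3 and 29.3 FPKM across MSTN-KO replicates. The groups overlapped, with MSTN-KO replicate 3 the lowest library. Its log2 fold change was -0.04 (95% interval -0.31 to 0.22, limma adjusted p = 0.831). The interval leaves room for a decrease or an increase of that size in the mRNA. The amount of NRF2 protein, through which KEAP1 mostly acts, was not measured.

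*Keap1* (ENSMUSG00000003308, chromosome 9, 21229730 to 21239361, minus strand) encodes the sensor that keeps NRF2 low. It was at 21.9, 19.1 and 19.2 FPKM across WT replicates, against 23.9, 24.15 and 26.35 FPKM across MSTN-KO replicates. Every MSTN-KO library was above every WT library, as for 19.3% of all tested genes. Among the 10 NRF2 genes this held for 2, *Keap1* and *Hmox1*, and the reverse held for 0, against 18.1% of all tested genes. The log2 fold change of 0.29 (95% interval 0.02 to 0.57) did not pass (limma adjusted p = 0.126). An antisense gene, *Gm16754*, overlaps exons of *Keap1* and was not analysed here, and whether the counting used strand is not given in the sources used here.

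*Hmox1* (ENSMUSG00000005413, chromosome 8, 75093621 to 75100589, plus strand) encodes heme oxygenase 1, which breaks heme down to biliverdin, iron and carbon monoxide. It was at 49.3, 55.9 and 51.6 FPKM across WT replicates, against 113.9, 69.5 and 101 FPKM across MSTN-KO replicates. The WT libraries lay close together, and all MSTN-KO libraries were above them, with replicate 2 the nearest to WT. The group means were 52.3 ± 3.35 FPKM (SD, n = 3) in WT and 94.8 ± 22.8 FPKM in MSTN-KO. The log2 fold change was 0.82 with a standard error of 0.17 (limma adjusted p = 0.00476), the largest of the 10. It passed under all 16 alternatives, with adjusted p from 0.00015 to 0.0346, and stayed within 0.67 to 1.03 when any 1 library was removed.

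*Osgin1* (ENSMUSG00000074063, chromosome 8, 119434124 to 119446256, plus strand), oxidative stress induced growth inhibitor 1, was the other gene that rose. It was at 17.3, 12.7 and 12.65 FPKM across WT replicates, against 28.4, 16.7 and 24.9 FPKM across MSTN-KO replicates. The groups overlapped, since MSTN-KO replicate 2 was below WT replicate 1, while MSTN-KO replicates 1 and 3 were above all WT libraries. The log2 fold change was 0.66 with a standard error of 0.19 (limma adjusted p = 0.0296). This call was lost on removing any of 4 libraries. The adjusted p was 0.102 without WT replicate 2, 0.0833 without WT replicate 3, 0.115 without MSTN-KO replicate 1 and 0.118 without MSTN-KO replicate 3, and over all 16 alternatives it ran from 0.00252 to 0.149.

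*Nqo1* (ENSMUSG00000003849, chromosome 8, 107388225 to 107403206, minus strand), the NAD(P)H quinone reductase often used as a readout of NRF2 activity, had its widest spread within MSTN-KO. It was at 45.9, 46.3 and 51.6 FPKM across WT replicates, against 56.9, 34.2 and 57.0 FPKM across MSTN-KO replicates. MSTN-KO replicates 1 and 3 were above all WT libraries and replicate 2 was below all of them. Between the groups the log2 fold change was 0.01 (95% interval -0.38 to 0.39, limma adjusted p = 0.984). Without MSTN-KO replicate 2 it was 0.25 and still did not pass (limma adjusted p = 0.219).

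*Gclc* and *Gclm* encode the catalytic and the modifier subunit of glutamate-cysteine ligase, the rate-limiting enzyme of glutathione synthesis. *Gclc* (ENSMUSG00000032350, chromosome 9, 77754535 to 77794485, plus strand) was at 10.7, 12.2 and 12.0 FPKM across WT replicates, against 13.5, 10.9 and 11.7 FPKM across MSTN-KO replicates. *Gclm* (ENSMUSG00000028124, chromosome 3, 122245557 to 122270732, plus strand) was at 38.3, 38.6 and 37.5 FPKM across WT replicates, against 47.1, 38.4 and 57.2 FPKM across MSTN-KO replicates. The groups overlapped for both subunits, and for *Gclm* the WT libraries were within a narrow range that MSTN-KO replicate 2 shared. The log2 fold change was 0.05 for *Gclc* (95% interval -0.25 to 0.35, limma adjusted p = 0.843) and 0.29 for *Gclm* (95% interval -0.02 to 0.61, limma adjusted p = 0.183). *Gclm* passed without MSTN-KO replicate 2 (0.43, limma adjusted p = 0.0443), and a transcribed pseudogene, *Gm6061*, overlaps its exons on the same strand. In every library the *Gclm* level was above the *Gclc* level, on the FPKM scale that allows for gene length.

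*Slc7a11* (ENSMUSG00000027737, chromosome 3, 49892526 to 50443614, minus strand) encodes the cystine importer that supplies cysteine for glutathione. It had the lowest level of the 10 genes, at 2.71, 1.98 and 2.02 FPKM across WT replicates, against 2.18, 2.40 and 1.80 FPKM across MSTN-KO replicates. The groups overlapped, with a WT library the highest and a MSTN-KO library the lowest. Its log2 fold change was -0.05 (95% interval -0.41 to 0.31, limma adjusted p = 0.869). *Slc7a11* had 9223 bases in its longest transcript, and its fold change became 0.19 once gene length and GC content were corrected for (limma adjusted p = 0.373).

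*Txnrd1* (ENSMUSG00000020250, chromosome 10, 82833951 to 82897712, plus strand) encodes thioredoxin reductase 1, which keeps cytosolic thioredoxin reduced. It had the highest level of the 10 genes, at 137.9, 132.6 and 142.3 FPKM across WT replicates, against 140.9, 136.3 and 158.2 FPKM across MSTN-KO replicates. *Srxn1* (ENSMUSG00000032802, chromosome 2, 152105516 to 152111376, plus strand) encodes sulfiredoxin 1, which repairs overoxidised peroxiredoxins. It was at 45.1, 50.9 and 56.1 FPKM across WT replicates, against 53.9, 44.9 and 68.7 FPKM across MSTN-KO replicates. The groups overlapped for both genes, with MSTN-KO replicate 3 the highest library for each. The log2 fold change was 0.07 for *Txnrd1* (95% interval -0.18 to 0.33, limma adjusted p = 0.701) and 0.12 for *Srxn1* (95% interval -0.22 to 0.46, limma adjusted p = 0.631).

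**Figure D1:**
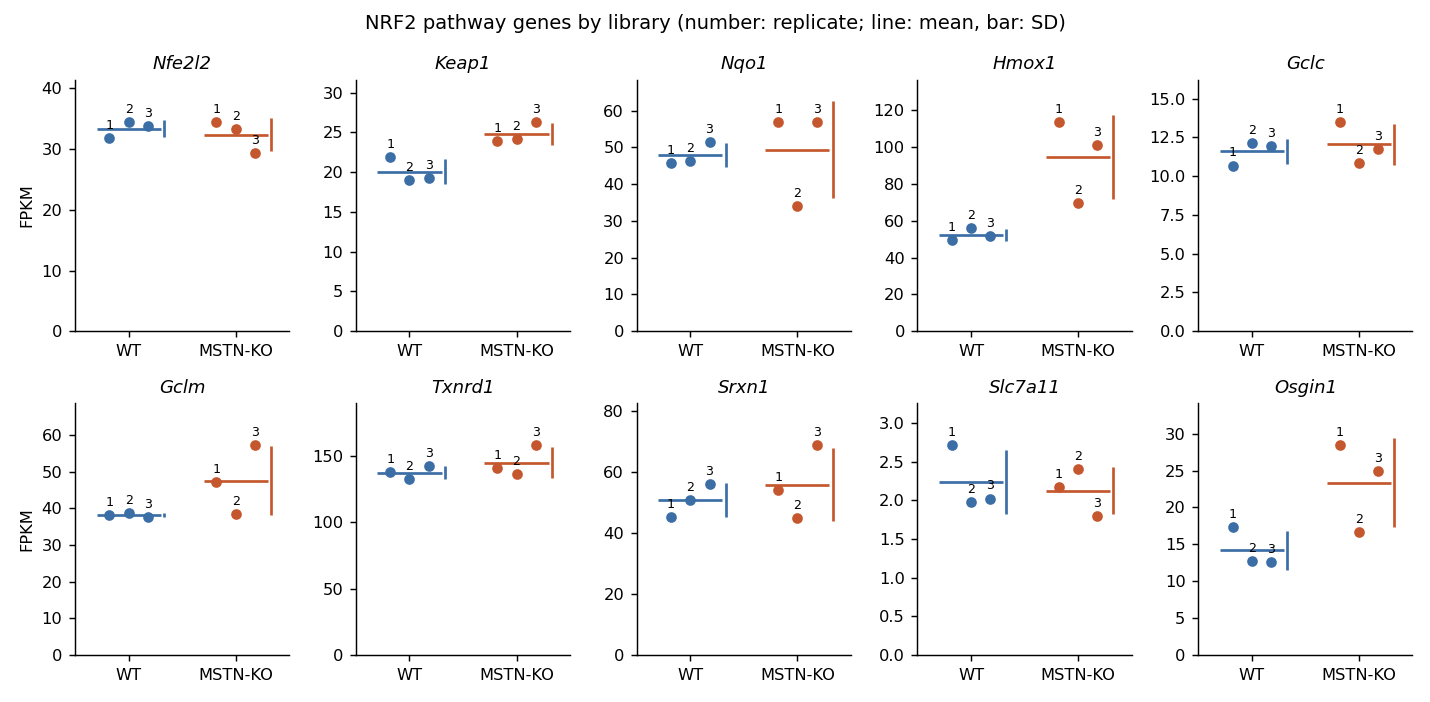
FPKM (linear axes from 0) of the 10 NRF2 pathway genes in the 3 WT libraries (blue) and the 3 MSTN-KO libraries (orange), with the replicate number at each point, a line at the group mean and a bar for the SD. *Hmox1* and *Keap1* have no overlap between the groups. MSTN-KO replicate 2 is the lowest MSTN-KO library for 7 of the 10 genes, and for 39.2% of all tested genes.

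By the WT mean FPKM, which allows for gene length, the order of levels was *Txnrd1*, *Hmox1*, *Srxn1*, *Nqo1*, *Gclm*, *Nfe2l2*, *Keap1*, *Osgin1*, *Gclc* and *Slc7a11*. The ranges of *Hmox1*, *Srxn1* and *Nqo1* overlapped with their neighbours among these, and all other neighbours in that order were apart in all 3 WT libraries. In MSTN-KO the order of the means was the same. There *Hmox1* stood clear of *Srxn1*, the ranges of *Srxn1*, *Nqo1* and *Gclm* overlapped with their neighbours, and those of *Keap1* and *Osgin1* overlapped too.

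MSTN-KO replicate 2 was the lowest of the MSTN-KO libraries for 7 of the 10 genes, *Nqo1*, *Hmox1*, *Gclc*, *Gclm*, *Txnrd1*, *Srxn1* and *Osgin1*. This was looked for after the values had been seen. The same library was the lowest for 39.2% of all tested genes, and it had the lowest FPKM sum of the MSTN-KO group. The genes on which this library did not lie lowest were *Nfe2l2*, *Keap1* and *Slc7a11*. Without it, 3 of the 10 genes rose, *Gclm* in addition to *Hmox1* and *Osgin1*. Over all tested genes, 1184 of 10806 rose in that fit, against 952 of 10837 with all libraries. Each of the 3 NRF2 genes is then compared with the spread of 2 MSTN-KO and 3 WT libraries.

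Genes with patterns most like those of the 2 called genes were taken from all other tested genes by the root mean square difference of log2(FPKM + 1) values, each centred on its gene's mean over the 6 libraries. Closest to *Hmox1* were *Pgf*, a placental growth factor of the VEGF family (difference 0.0858), *Csf2rb*, a cytokine receptor subunit with a close paralog (0.104), and the metallothionein *Mt1* (0.11). *Csf2rb* was low, at 0.157, 0.219 and 0.108 FPKM across WT replicates, against 1.87, 0.807 and 1.36 FPKM across MSTN-KO replicates. It reached 1 FPKM in MSTN-KO libraries only. Its log2 fold change on the log2(FPKM + 1) scale was 0.99, while its MSTN-KO mean was 833.5% of its WT mean, against 181.4% for *Hmox1*. *Mt1* was at 359, 409.7 and 361.5 FPKM across WT replicates, against 702.8, 414.2 and 678.5 FPKM across MSTN-KO replicates. Like *Hmox1*, it was nearest to WT in MSTN-KO replicate 2. Closest to *Osgin1* were the phosphatase gene *Dusp2* (0.0349), *Adamtsl4* (0.104) and *Podnl1* (0.108). *Dusp2* was at 9.34, 6.81 and 6.69 FPKM across WT replicates, against 15.9, 9.65 and 13.5 FPKM across MSTN-KO replicates.

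The partners and regulators of NRF2 formed a list of 24 genes, of which 21 were tested, 0 rose and 1 fell. That gene was *Bach1*, the heme-sensitive repressor. At an unadjusted limma p under 0.05 the counts were also 0 and 1. *Bach1* was at 8.09, 7.10 and 5.98 FPKM across WT replicates, against 3.32, 5.73 and 2.67 FPKM across MSTN-KO replicates. The MSTN-KO libraries all lay under the WT range, and MSTN-KO replicate 2 was the nearest to WT. *Bach1* had a log2 fold change of -0.76 with a standard error of 0.21 (limma adjusted p = 0.0256), and -0.66 once gene length and GC content were corrected for (limma adjusted p = 0.0361). The call was lost without WT replicate 1 (limma adjusted p = 0.104), WT replicate 2 (0.0694), MSTN-KO replicate 1 (0.0671) or MSTN-KO replicate 3 (0.107), and its adjusted p over the 16 alternatives ran from 0.00153 to 0.107.

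The other named partners did not pass. *Cul3*, the scaffold of the ligase that KEAP1 serves, was at 11.1, 13.8 and 20.2 FPKM across WT replicates, against 11.1, 15.2 and 9.45 FPKM across MSTN-KO replicates (log2 fold change -0.29, limma adjusted p = 0.35). The small MAF genes *Maff*, *Mafg* and *Mafk* had log2 fold changes of -0.08, 0.11 and -0.11, with limma adjusted p of 0.723, 0.614 and 0.626. Their levels were 39.7, 43.8 and 12.1 FPKM in WT and 37.5, 46.9 and 11.1 FPKM in MSTN-KO, as means of 3 libraries. *Bach2*, a relative of *Bach1*, was under 0.2 FPKM in all 6 libraries and was not tested. The median log2 fold change of the 21 genes was -0.04, beside 0.00 for all tested genes.

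**Figure D2:**
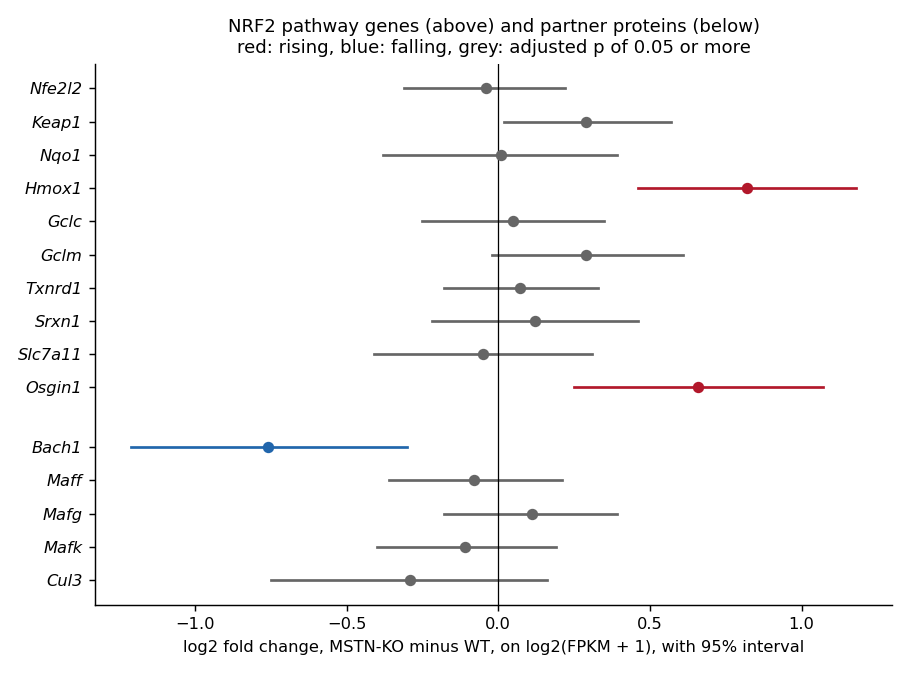
Log2 fold changes of MSTN-KO against WT on the log2(FPKM + 1) scale, with 95% intervals from limma, for the 10 NRF2 pathway genes and 5 partner genes. *Hmox1* and *Osgin1* (red) lie above 0 and *Bach1* (blue) below, and the grey genes did not pass the adjusted p threshold.

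Around *Hmox1*, the genes of heme and iron handling were a list of 12, all tested. Of these, 5 rose and 1 fell, with 8 higher and 4 lower in sign. Over all tested genes 8.78% rose and 8.96% fell, with 5408 higher and 5429 lower in sign, the background for the other lists too. The 6 genes not called had limma adjusted p of 0.0817 to 0.351. Their log2 fold changes were 0.36 (*Hmox2*), 0.34 (*Blvra*), 0.23 (*Alas1*), -0.20 (*Fech*), -0.28 (*Abcb6*) and -0.34 (*Tfrc*). After scaling to an FPKM sum of 1000000, 3 genes of the list rose and 3 fell. Over all 10837 tested genes 350 rose and 2367 fell under that scaling, which is the background for the sum-scaled counts of the lists below too. *Fth1*, the ferritin heavy chain that oxidises iron for storage, was at 2811, 2725 and 2734 FPKM across WT replicates, against 6371, 4717 and 7033 FPKM across MSTN-KO replicates. Its log2 fold change was 1.11 with a standard error of 0.17 (limma adjusted p = 0.000699). *Ftl1*, the ferritin light chain, was at 7492, 6351 and 7357 FPKM across WT, against 14410, 11590 and 15990 FPKM across MSTN-KO, a log2 difference of 0.98 (limma adjusted p = 0.00224). Both ferritin RNAs were thus clear of WT in every MSTN-KO library, and the pair held 1.25% to 1.36% of the FPKM sum in WT and 1.90% to 2.34% in MSTN-KO. Ferritin genes have processed pseudogenes, and reads from these may be mixed into the values.

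*Blvrb*, a reductase of biliverdin and flavins, was at 32.9, 27.2 and 27.7 FPKM across WT replicates, against 62.7, 53.8 and 73.9 FPKM across MSTN-KO replicates (log2 fold change 1.08, limma adjusted p = 0.000241). *Slc48a1*, a heme transporter, was at 80.3, 62.6 and 68.0 FPKM across WT, against 105, 85.2 and 112.9 FPKM across MSTN-KO (log2 fold change 0.51, limma adjusted p = 0.0252). *Slc40a1*, the iron exporter ferroportin, was low, at 0.647, 0.343 and 0.446 FPKM across WT, against 1.52, 1.22 and 0.969 FPKM across MSTN-KO (log2 fold change 0.59, limma adjusted p = 0.0349). All 3 were higher in every MSTN-KO library than in any WT library. That held for 7 genes of the list and the reverse for 2, against 19.3% and 18.1% of all tested genes. *Ireb2*, an RNA-binding regulator that holds ferritin translation down when iron is scarce, fell from WT levels of 5.70, 5.73 and 6.01 FPKM to MSTN-KO levels of 2.61, 4.92 and 2.46 FPKM (log2 fold change -0.70, limma adjusted p = 0.0279). *Fth1*, *Ftl1* and *Blvrb* passed under all 16 alternatives each, though with quantile normalization *Fth1* was at 0.65 and *Ftl1* at 0.39. *Slc48a1* lost its call without WT replicate 2 or 3 or MSTN-KO replicate 1 or 3 (limma adjusted p 0.0637 to 0.13), without the filter on low values (0.0558) and after the sum scaling (0.23, adjusted p = 0.148). *Slc40a1* reached 1 FPKM in MSTN-KO libraries only, so that it was tested through the group where it was high, and with a filter on the mean it was not tested and 4 genes of the list rose. Its fold change was 1.22 with a pseudocount of 0.1. *Slc40a1* lost its call without any 1 library other than MSTN-KO replicate 3 (limma adjusted p 0.0516 to 0.148), and *Ireb2* without any 1 library other than MSTN-KO replicate 2 (0.0679 to 0.109). *Ireb2* passed under 8 of its 16 alternatives. It also failed without the filter on low values (limma adjusted p = 0.0892) and with quantile normalization (0.0539). With the length and GC correction its fold change was -0.46 (limma adjusted p = 0.0441, and 0.0636 with the replicate block added). The list's rising count was 3 without WT replicate 2, WT replicate 3 or MSTN-KO replicate 1. For *Hmox1*, *Fth1*, *Ftl1*, *Blvrb* and *Slc48a1* MSTN-KO replicate 2 was the lowest MSTN-KO library, and for *Bach1* and *Ireb2* it was the highest.

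**Figure D3:**
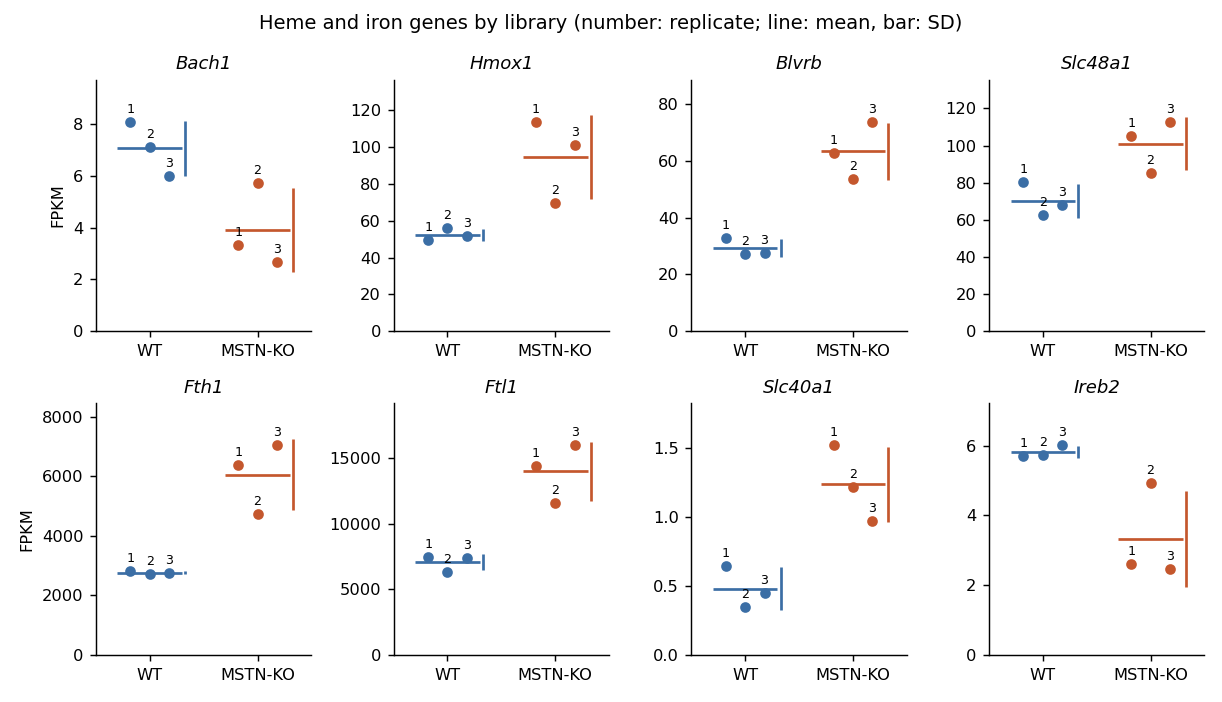
FPKM (linear axes from 0) of *Bach1*, *Hmox1* and the 6 called genes of the heme and iron list in the WT (blue) and MSTN-KO (orange) libraries, with replicate numbers, a line at the mean and a bar for the SD. The genes of that list that were not called are not shown. *Bach1* and *Ireb2* are lower in every MSTN-KO library and the other 6 genes higher, with MSTN-KO replicate 2 nearest to WT except for *Slc40a1*.

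The enzymes that supply NADPH, which thioredoxin reductase, glutathione reductase and NQO1 use as reductant, were a list of 8 genes. Of these, 4 rose and 0 fell (2 and 0 after the sum scaling), and the same counts held at an unadjusted limma p under 0.05. *G6pdx*, the entry enzyme of the pentose phosphate pathway, was at 65.3 ± 2.75 FPKM (SD, n = 3) in WT and 97.4 ± 12.7 FPKM in MSTN-KO (log2 fold change 0.56, limma adjusted p = 0.00966). *Tkt*, transketolase, was at 29.8 ± 1.56 and 52.8 ± 4.39 FPKM (0.80, limma adjusted p = 0.00085). *Pgd* and *Pgls* rose by 0.52 and 0.48 on the log2 scale (limma adjusted p = 0.0213 and 0.0245). For each of the 4 genes every MSTN-KO library was above every WT library. With *Taldo1*, which was not called, that held for 5 of the 8 genes, and for 19.3% of all tested genes. The other 4 genes did not pass. Of these, *Rpia* and *Taldo1*, also of the pentose phosphate pathway, both stood 0.30 higher on the log2 scale (limma adjusted p = 0.212 and 0.166), and *Me1* and *Idh1*, which make NADPH outside it, had -0.04 and -0.13. After the sum scaling *G6pdx* was at 0.28 and *Tkt* at 0.52. *Tkt* passed under all 16 alternatives and *G6pdx* under 15, the exception being the fit without WT replicate 2 (limma adjusted p = 0.0559). The calls of *Pgd* and *Pgls* were lost without any 1 of several libraries, so that the list's count was 2 without MSTN-KO replicate 1 or 3 and 1 without WT replicate 2. *Pgd* lost its call without WT replicate 1 or 2 or MSTN-KO replicate 1 or 3 (limma adjusted p 0.0557 to 0.0912), and *Pgls* without WT replicate 2 or 3 or MSTN-KO replicate 1 or 3 (0.0721 to 0.109).

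Among the further glutathione genes, 18 of 21 listed were tested, 2 rose and 0 fell (1 and 2 after the sum scaling), with 4 higher and 1 lower at an unadjusted limma p under 0.05. *Glrx*, glutaredoxin 1, which removes glutathione from proteins, was at 23.1, 25.96 and 28.2 FPKM across WT replicates, against 53.0, 45.8 and 49.3 FPKM across MSTN-KO replicates (log2 fold change 0.91, limma adjusted p = 0.00039). It was clear of WT in every MSTN-KO library and passed under all 16 alternatives. *Gpx4*, which reduces lipid hydroperoxides, had a log2 difference of 0.49 (limma adjusted p = 0.0326) that was lost without WT replicate 2 or 3 or MSTN-KO replicate 1 or 3 (limma adjusted p 0.0744 to 0.144) and after quantile normalization (0.10, limma adjusted p = 0.584). *Gsr*, glutathione reductase, and *Gss*, glutathione synthetase, had log2 fold changes of 0.17 and 0.11 and did not pass, as *Gclc* did not. The count of rising genes was 4 without MSTN-KO replicate 2 and 1 without any of WT replicates 2 and 3 and MSTN-KO replicates 1 and 3.

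Among 11 tested thioredoxin and peroxiredoxin genes, 2 rose and 1 fell, a split of 1 and 2 after the sum scaling. *Prdx5*, a peroxiredoxin, was at 226 ± 17.8 FPKM (SD, n = 3) in WT and 352 ± 49.9 FPKM in MSTN-KO, a log2 difference of 0.63 (limma adjusted p = 0.00672). *Txnip*, the inhibitor of thioredoxin, fell by 1.10 on the log2 scale, from WT levels of 12.6, 12.5 and 9.67 FPKM to MSTN-KO levels of 3.94, 6.08 and 4.72 FPKM (limma adjusted p = 0.000876). Both passed under all 16 alternatives, with *Prdx5* at 0.34 after the sum scaling. *Sesn2*, a stress-induced sestrin, had a log2 difference of 0.46 (limma adjusted p = 0.0454), with adjusted p from 0.0194 to 0.292 over the alternatives, and its call was lost without WT replicate 2 or 3 or MSTN-KO replicate 1 or 3. *Prdx1* and *Txn1*, further genes with antioxidant response elements, had log2 fold changes of -0.20 and 0.50 and did not pass (limma adjusted p = 0.599 and 0.0529). The groups overlapped for *Prdx1*. For *Txn1* every MSTN-KO library was above every WT library, as for 19.3% of all tested genes. The count of rising genes was 3 without MSTN-KO replicate 2 and 1 without MSTN-KO replicate 3 or WT replicate 2.

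The detoxification list, conjugating and reducing enzymes of which many are textbook NRF2 targets, had 40 genes, 33 of them with values and 28 tested. Those without values were *Gsta3*, *Gstm3*, *Gstm4*, *Gstp1*, *Gstp2*, *Gstt3* and *Ugt1a6a*. Of the 28 tested genes, 11 rose and 1 fell (8 and 2 after the sum scaling), against 8.78% and 8.96% of all tested genes in the main fit. The largest rises were those of *Mgst1*, *Gsta2*, *Aldh3a1* and *Mgst2*, with log2 fold changes of 3.34, 3.01, 2.28 and 2.15 and limma adjusted p of 3.76e-08, 2.26e-07, 1.81e-06 and 1.88e-06. *Gsta2*, a glutathione S-transferase whose promoter gave the antioxidant response element its early description, was at 2.67, 2.06 and 3.11 FPKM across WT replicates, against 21.5, 31.9 and 31.9 FPKM across MSTN-KO replicates. *Aldh3a1*, an aldehyde dehydrogenase, was at 19.7, 21.5 and 14.2 FPKM across WT, against 104.5, 73.1 and 102.2 FPKM across MSTN-KO. The groups did not overlap for either gene. In the list, 15 genes had every MSTN-KO library above every WT library and 2 had the reverse, against 19.3% and 18.1% of all tested genes. *Akr1c13*, an aldo-keto reductase, was the gene that fell, with 0.156 ± 0.0668 FPKM (SD, n = 3) against a WT level of 0.803 ± 0.311 FPKM (log2 fold change -0.63, limma adjusted p = 0.035), a call lost without WT replicate 2 or any 1 of the MSTN-KO replicates (limma adjusted p 0.0615 to 0.144), and the gene is under the filter without WT replicate 3. It reached 1 FPKM in 1 WT library only, the group where it was high, and with a filter on the mean 0 genes of the list fell. With a pseudocount of 0.1 its fold change was -1.78. *Mgst1* likewise reached 1 FPKM in MSTN-KO libraries only.

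*Cbr3* and *Ptgr1*, chosen here after their values were seen because they are often counted with *Nqo1* among NRF2 targets, had log2 fold changes of 0.05 and 0.07 (limma adjusted p = 0.863 and 0.755). They were among 16 of the 28 tested genes that did not pass. Besides the 4 largest rises and *Ephx1*, the rising genes of the list were *Ugt1a9*, *Gsta4*, *Gstm1*, *Gstt1*, *Gsta1* and *Gstz1*. Their log2 fold changes were 1.89, 1.52, 1.23, 0.93, 0.72 and 0.59 (limma adjusted p = 0.000627, 1.36e-05, 3.94e-05, 0.00452, 0.0401 and 0.011). *Nqo2*, the relative of *Nqo1*, was at 6.44, 7.56 and 6.90 FPKM across WT replicates, against 5.08, 5.36 and 4.31 FPKM across MSTN-KO replicates. It was lower in every MSTN-KO library, but its log2 fold change of -0.43 did not pass (limma adjusted p = 0.0614). *Ephx1*, microsomal epoxide hydrolase, rose from a WT level of 88.8 ± 16.4 FPKM to 152.1 ± 31.9 FPKM (SD, n = 3, log2 fold change 0.76, limma adjusted p = 0.00955). The Gsta genes are close paralogs, so how reads were divided among them is uncertain. As log2 fold changes, the 10 members lay between -0.05 and 0.82, and the detoxification list between -0.63 (*Akr1c13*) and 3.34 (*Mgst1*). Both end genes reached 1 FPKM only in the group where they were high. The lowest and highest of the other tested genes of the list were *Nqo2* at -0.43 and *Gsta2* at 3.01. In sign 25 of the 28 tested detoxification genes were higher and 3 lower, against 5408 higher and 5429 lower over all tested genes. The signs were not counted after the sum scaling. The median log2 fold change was 0.39 for this list, 0.39 for the NADPH list and 0.35 for the iron and heme list. After scaling to an FPKM sum of 1000000 these medians were 0.11, 0.12 and 0.07, beside -0.26 for all tested genes.

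**Figure D4:**
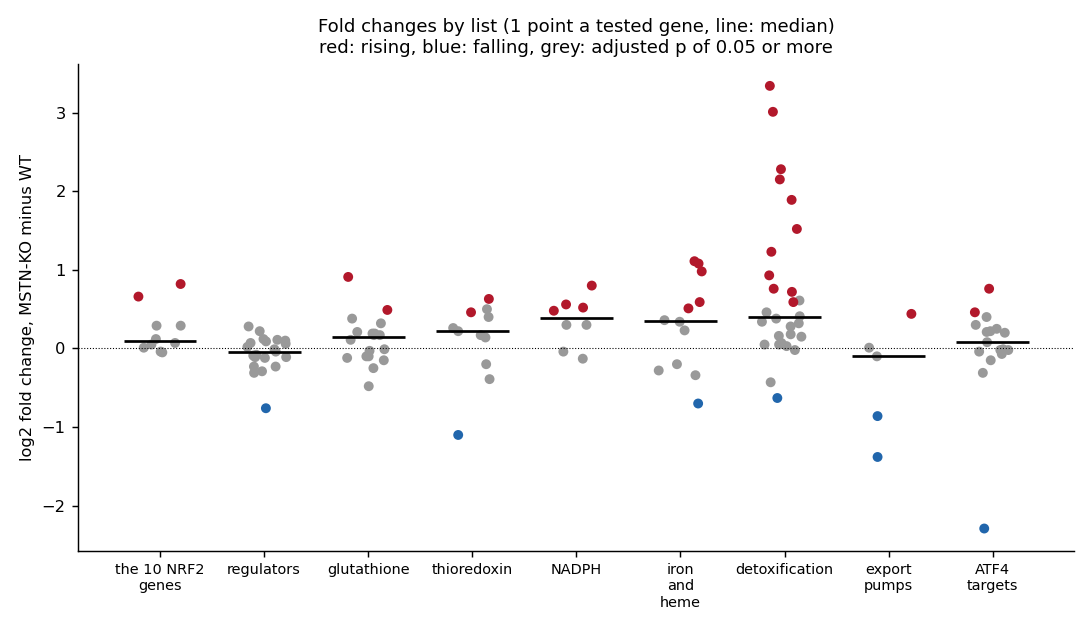
Log2 fold changes of MSTN-KO against WT for the tested genes of 9 lists, 1 point a gene, with a line at each list's median. Red points rose, blue points fell and grey points did not pass. The 10 NRF2 genes lie between -0.05 and 0.82, and the detoxification list reaches 3.34 at *Mgst1*, which reached 1 FPKM in MSTN-KO libraries only.

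The sign of the smallest differences depended on how the libraries were scaled. With each library scaled to an FPKM sum of 1000000, *Nfe2l2*, *Nqo1*, *Gclc*, *Txnrd1*, *Srxn1* and *Slc7a11* all had negative log2 fold changes, from -0.32 to -0.16, beside the shift of -0.26 in the median of all genes. *Keap1* and *Gclm* were then at 0.02 and 0.01. *Hmox1* was at 0.54 and still passed (limma adjusted p = 0.0346), and *Osgin1* was at 0.39 and did not (limma adjusted p = 0.149). Under all settings tried, *Hmox1* and *Osgin1* had the highest fold changes of the 10 genes.

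**Figure D5:**
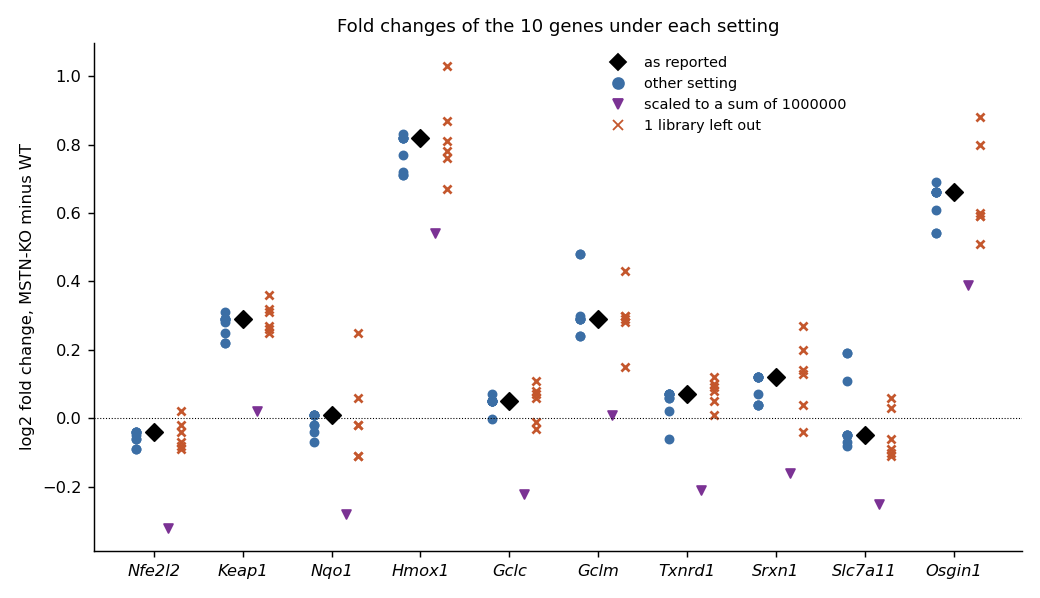
Log2 fold changes of the 10 NRF2 genes as reported (black diamonds), under other processing settings (blue circles), after scaling to an FPKM sum of 1000000 (purple triangles) and with 1 library left out (orange crosses). *Hmox1* stays between 0.54 and 1.03 and *Osgin1* between 0.39 and 0.88, and the signs of *Nqo1*, *Gclc*, *Txnrd1*, *Srxn1*, *Slc7a11* and *Nfe2l2* change with the setting.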

How the data were processed

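RNA-seq of 3 WT and 3 MSTN-KO libraries was analysed. The authors sequenced on an Illumina HiSeq system and deposited FPKM values, 1 library a file. The submitters' processing notes name Bowtie 0.12.2 and the build mm8, with no role given; annotation, strand setting and gene filter are not given in the sources used here. FPKM hold no fragment counts, so counting error could not be given. Gene identifiers were matched to GENCODE M21 (GRCm38), which gave 14445 of 14548 a symbol, length and GC content; printed positions are those of GRCm38 and not of the files.

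Values on the log2(FPKM + 1) scale went into limma 3.58.1 under R 4.3.3 (eBayes with trend, 1 group coefficient). Tables and plots were made with pandas 2.3.3, numpy 2.4.6 and matplotlib 3.10.9 (Python 3.11.15). Length and GC content were corrected with smooths from mgcv 1.9.3. The members and gene lists were chosen with earlier results of these data known. Named were all members and, from each list, up to 4 genes with the largest rise and up to 4 with the largest fall among those with an adjusted p under 0.05, plus the BACH, small MAF and CUL3 partners, and the 3 nearest patterns of called members. Other genes were named after their values were seen. In 16 alternatives the pseudocount was 0.1 or the settings were no filter, a filter on the mean, eBayes without trend, scaling to a sum of 1000000 or by percentile 75, quantile normalization, the length and GC correction, a replicate block without and with that correction, and leaving out each library. The fit was tested on simulated data.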

Additional observations from a re-analysis of the deposited data

How the results depend on the processing

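Over the 6 fits that each left out 1 library, 1 to 3 of the 10 genes rose, and over all genes 423 to 1184 rose and 606 to 1251 fell, against 952 and 971 with all libraries. Of the 10 genes, 0 fell in any of the 16 alternatives, and at an unadjusted limma p under 0.05 with all libraries 0 were lower. Without a filter on low values 1 of the 10 rose, and after scaling to an FPKM sum of 1000000 also 1, with 350 genes rising and 2367 falling in all. Scaling to 1000000 also reversed *Nqo1* (-0.28), *Gclc* (-0.22), *Txnrd1* (-0.21), *Srxn1* (-0.16) and *Mafg* (-0.17). *Nqo1* was -0.04 with scaling by the percentile 75, -0.07 with quantile normalization and -0.02 after the length and GC correction, with or without the replicate block. *Gclc* was -0.00073 with the percentile 75. Quantile normalization gave -0.06 for *Txnrd1* and 0.11 for *Slc7a11*, and the length and GC correction 0.19 for *Slc7a11*, with or without the block. With 1 library left out, *Nfe2l2* ran from -0.09 to 0.02, *Nqo1* from -0.11 to 0.25, *Gclc* from -0.03 to 0.11, *Srxn1* from -0.04 to 0.27, *Slc7a11* from -0.11 to 0.06 and *Maff* from -0.16 to 0.01. The cause of these changes was not tested. The replicate numbers are shared by the groups, but deviations from the group means correlated at -0.0153, -0.128 and -0.142 between libraries of the same number, no sign of pairing; with the replicate block 939 genes rose and 1001 fell, and 2 of the 10 genes rose.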

Other observations

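Export pumps, some of which are known NRF2 targets, and targets of the stress factor ATF4, which also drives *Slc7a11*, had genes called in both directions. Of 8 pump genes 5 were tested, of which 1 rose and 2 fell (0 and 2 after scaling to an FPKM sum of 1000000). *Abcg2*, an exporter of drugs and porphyrins, was at 49.96, 43.9 and 35.9 FPKM across WT replicates, against 13.8, 19.3 and 14.8 FPKM across MSTN-KO replicates, a log2 difference of -1.38 (limma adjusted p = 7.73e-05). *Abcc5* fell by 0.86 on the log2 scale (limma adjusted p = 0.0012), and both falls passed under all 16 alternatives. *Abcc1*, an exporter of glutathione conjugates and an NRF2 target, stood 0.44 higher on the log2 scale (limma adjusted p = 0.0347), a call lost without WT replicate 2 or 3 or MSTN-KO replicate 1 or 3 (limma adjusted p 0.0641 to 0.152).

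Of 17 tested ATF4 targets, 2 rose and 1 fell (1 and 3 after that scaling), with a median log2 fold change of 0.08. *Ddit4*, an inhibitor of mTORC1 signalling, was at 48.1, 40.8 and 44.2 FPKM across WT replicates, against 84.8, 68.7 and 74.1 FPKM across MSTN-KO replicates (log2 fold change 0.76, limma adjusted p = 0.00163). *Sesn2*, which the thioredoxin list also holds, was the other that rose. *Fgf21* was at 9.30, 9.99 and 2.20 FPKM across WT, against 0.476, 0.404 and 0.503 FPKM across MSTN-KO (log2 fold change -2.29, limma adjusted p = 0.000868), with WT replicate 3 apart from the other WT libraries, as in the myocyte differentiation genes. *Ddit4* and *Fgf21* passed under all 16 alternatives, with *Ddit4* at 0.48 after that scaling. *Fgf21* reached 1 FPKM in WT libraries only, the group where it was high. Without MSTN-KO replicate 2 the list had 4 rising genes, and without WT replicate 2, WT replicate 3, MSTN-KO replicate 1 or MSTN-KO replicate 3 it had 1.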
